A study of Homo sapiens with 4 samples.

Results

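The RNA labelled ER-RNA, isolated with a kit for the endoplasmic reticulum (ER), of hypoxic HT1080 cells was set against the same fraction of cells kept in air, gene by gene, to find which classes of encoded protein differed. All probe sets that name 1 gene were included, which were 19460 of the 33297 on the array and stood for 18417 genes. HT1080 is a human fibrosarcoma line of mesenchymal origin. Cultures in medium with 0.4% serum were held for 36 h at 21% oxygen (control) or 1% oxygen (hypoxia), both with 5% CO2 at 37 °C, and either total-RNA or ER-RNA was isolated. The 4 samples are 1 array each for total-RNA and ER-RNA at either oxygen level, and every array carried RNA pooled from 5 experiments. The ER-RNA comparison therefore rests on 2 arrays, no spread between experiments can be measured, and no test or p-value is given.

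Proteins that are secreted, that stay in the ER, Golgi or lysosome, or that span the cell membrane are made on ribosomes docked to the ER, because a signal peptide or membrane segment is caught by the signal recognition particle as it leaves the ribosome. Cytosolic, nuclear and most mitochondrial proteins are made on free ribosomes, although their mRNAs are also found at the ER. In hypoxia the transcription factor HIF raises transcripts for glycolysis, glucose uptake, matrix cross-linking and mitophagy, while protein synthesis as a whole slows down.

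Values are log2 expression. A gene counted as expressed in ER-RNA where at least 1 of the 2 ER-RNA arrays lay above its own 50% quantile, which held for 11297 of 16899 protein-coding genes. A difference over 1.4-fold is called past the threshold here. Of the expressed protein-coding genes, 675 were past it upwards (5.98%) and 2508 downwards (22.2%). Including non-coding genes the counts were 779 and 2539 of 11876. The median gene differed by -0.06 on the log2 scale, with quartiles at -0.43 and 0.23. With both arrays required to be above the quantile the counts were 628 and 2125, so that 151 and 414 of the genes past the threshold were above it on 1 array only.

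The encoded proteins were sorted into 5 classes by 40 gene lists, with 200 secreted, 242 membrane, 349 cytosolic, 385 mitochondrial and 235 nuclear genes measured, not all of them expressed in ER-RNA. In these lists, transcripts of secreted proteins were higher at 1% oxygen, and those of membrane proteins were centred near the median gene. Those on the cytosolic, mitochondrial and nuclear lists were lower in that order. The nuclear lists cover only mitosis, DNA replication, splicing, nuclear transport and ribosome biogenesis. Outside them, 233 expressed zinc finger genes named ZNF had a median of -0.05. The secreted class, which includes proteins of the ER lumen and lysosome, had a median of 0.17, or 0.23 above that of all protein-coding genes, and 110 of its 160 expressed genes were higher. The membrane class had a median of -0.05 over 221 genes. The cytosolic class had a median of -0.29 over 344 genes, the mitochondrial class -0.57 over 364 genes and the nuclear class, kept for comparison, -0.80 over 230 genes. With pooled RNA, fewer cells that express a gene and less RNA per cell cannot be told apart.

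Counts of genes past the threshold ran the same way. In the secreted class 28 of 160 expressed genes (17.5%) were past 1.4-fold upwards and 16 (10.0%) downwards, against 5.98% and 22.2% of all. The counts of single lists below are to be read beside these shares of all genes. In the membrane class the counts were 23 (10.4%) and 42 of 221. In the cytosolic class 13 (3.78%) were higher and 125 (36.3%) lower. In the mitochondrial class 7 (1.92%) were higher and 206 (56.6%) lower. None of the 230 nuclear genes was past the threshold upwards, or 2 after quantile normalization, and 171 (74.3%) were past it downwards. Among secreted genes past the threshold, 63.6% were higher with the values as deposited, 46.5% with the arrays centred on their medians and 72.7% after quantile normalization of the pair. For membrane genes the same shares were 35.4%, 25.7% and 52.5%, and the sign of the class median was positive after quantile normalization.

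**Figure D1:**
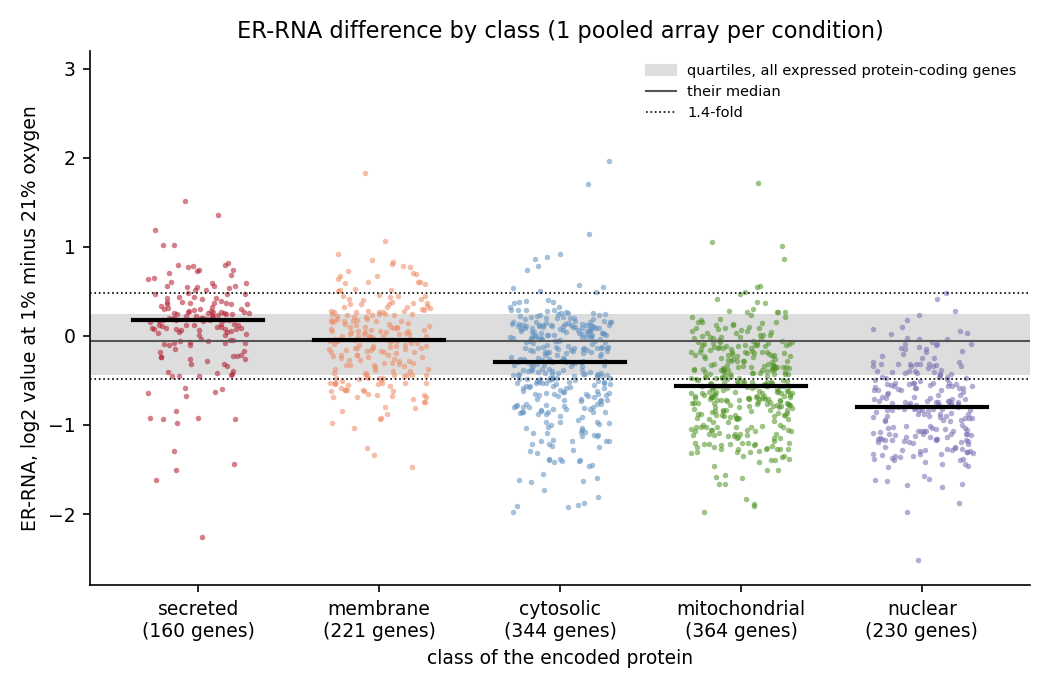
Difference in ER-RNA (log2 value at 1% minus 21% oxygen, vertical axis) of each expressed gene, grouped by the class of the encoded protein. Points are genes, black bars class medians (0.17, -0.05, -0.29, -0.57 and -0.80 from left to right), the grey band the quartiles of all expressed protein-coding genes and dotted lines a 1.4-fold difference. The cloud of points moves down from the secreted to the nuclear class while each class keeps a wide spread.

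The fraction was checked against its label before the classes were described further, with ER-RNA minus total-RNA at 21% oxygen taken relative to the median protein-coding gene. The 2 fractions do not share a scale, so only differences between classes can be read. The secreted class lay at -0.78 and the membrane class at -0.93, while the cytosolic class lay at 0.81, the mitochondrial class at 0.80 and the nuclear class at 0.16. Only 27 of 160 secreted and 37 of 221 membrane genes were above the median gene, as against 269 of 344 cytosolic ones. All 7 secreted and all 8 membrane lists lay below the median gene. The ER chaperone HSPA5 lay at -1.19 and P4HB, protein disulfide isomerase, at -1.31, while cytosolic GAPDH lay at 0.96 and the ribosomal protein RPL3 at 1.56. These values go against the label of an ER fraction, so the samples are called ER-RNA as the labels do and a higher value is not read as binding to the ER. The study reports the fraction as pure by cytosolic and ER marker proteins. It also reports qPCR checks of the arrays for selected genes and imaging of selected mRNAs together with an ER marker protein. None of these was analysed here. Of the cell type markers, 7 of 12 mesenchymal genes, among them VIM and FN1, were above the 50% quantile of the control ER-RNA array, with 2 of 9 epithelial and 2 of 9 leukocyte markers.

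**Figure D2:**
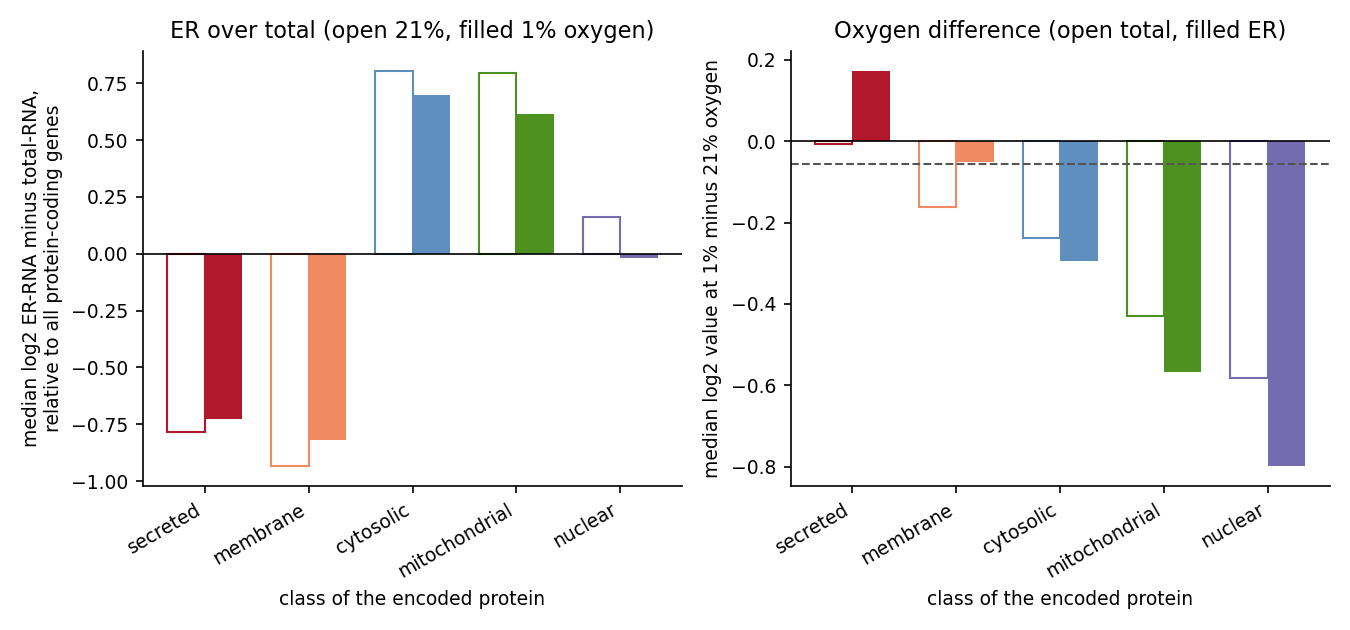
Left, median ER-RNA minus total-RNA of each class on the log2 scale relative to all protein-coding genes, at 21% (open) and 1% oxygen (filled). Secreted and membrane classes are below 0 (-0.78 and -0.93 at 21%), cytosolic and mitochondrial classes above it. Right, median log2 difference between 1% and 21% oxygen of the same genes in total-RNA (open) and ER-RNA (filled), with the ER-RNA median of all protein-coding genes dashed. The secreted class is at -0.01 in total-RNA and 0.17 in ER-RNA.

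In total-RNA 5.96% of 10983 expressed protein-coding genes were past the threshold upwards and 19.2% downwards, and the class medians had the same order over a narrower range. The same genes had medians of -0.01 for the secreted class, -0.16 for membrane, -0.24 for cytosolic, -0.43 for mitochondrial and -0.58 for nuclear. Gene by gene, the ER-RNA difference exceeded the total-RNA difference for 112 of 160 secreted genes (70.0%) and 127 of 221 membrane genes (57.5%). It did so for 141 of 344 cytosolic (41.0%), 113 of 364 mitochondrial (31.0%) and 55 of 230 nuclear genes (23.9%), against 48.5% of all protein-coding genes. The median gap between the fractions was small, at 0.14 for secreted, 0.06 for membrane, -0.05 for cytosolic, -0.13 for mitochondrial and -0.21 for nuclear genes. Whether these gaps exceed the spread between experiments was not tested, as each fraction has 1 array per condition. Of the 28 secreted genes higher in ER-RNA, 19 were also past the threshold in total-RNA, which is 67.9% of the ER-RNA list and 65.5% of the 29 in total-RNA, against 44.4% and 45.8% over all protein-coding genes. All 16 secreted genes lower in ER-RNA were lower in total-RNA too, where 32 were. For mitochondrial genes 133 were lower in both, which is 64.6% of the 206 in ER-RNA and 86.4% of the 154 in total-RNA, against 59.1% and 70.3% over all protein-coding genes.

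**Figure D3:**
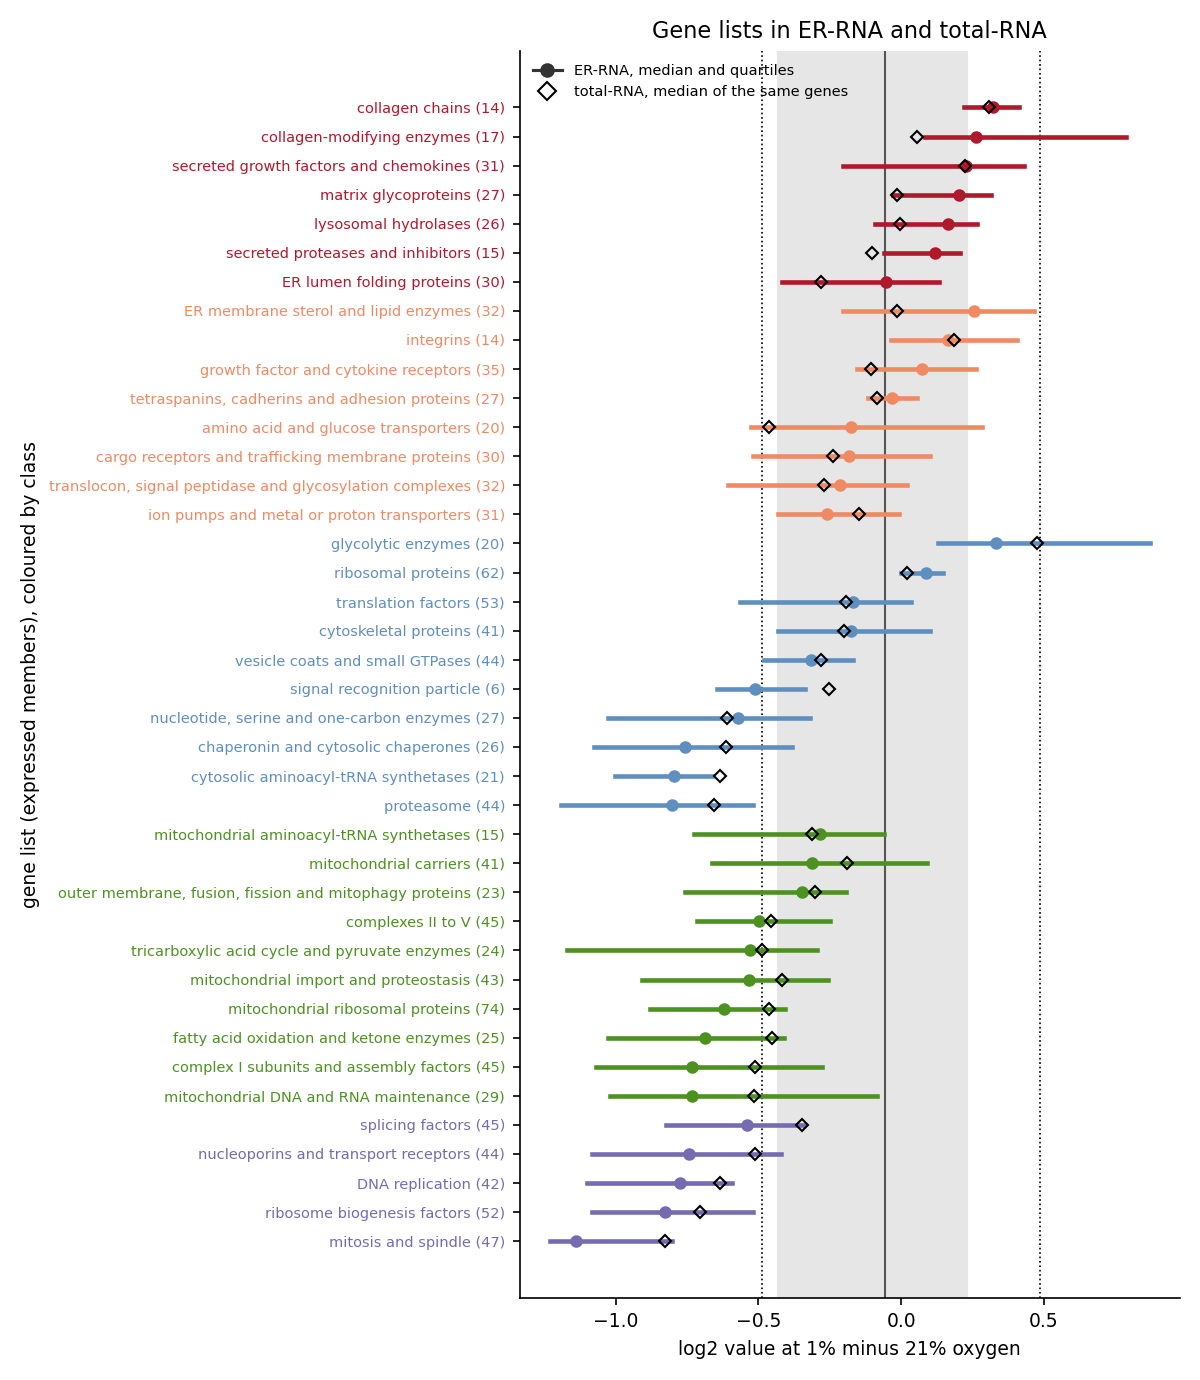
Median (dot) and quartiles (bar) of the ER-RNA difference, 1% minus 21% oxygen on the log2 scale, for 40 gene lists coloured by class, with the total-RNA median of the same genes as open diamonds and the number of expressed members in brackets. The grey band and line are the quartiles and median of all expressed protein-coding genes, and dotted lines mark 1.4-fold. Every mitochondrial and nuclear list has its median to the left of the line, and glycolytic enzymes (0.33) and collagen chains (0.32) lie farthest to the right.

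Within the secreted class, collagen chains and the enzymes that modify them had the highest medians. All 14 expressed collagen chains, of 18 measured, were higher in ER-RNA at 1% oxygen, from COL4A1 by 0.08 to COL12A1 by 0.80, with a median of 0.32, although only COL12A1 and COL4A2 were past the threshold. With the arrays centred on their medians or after loess, 13 of the 14 were higher and COL4A1 was not. Past the threshold upwards were 1 with the arrays centred, 4 after loess and 5 after quantile normalization. In total-RNA 5 of 14 collagen chains were past it upwards, 1 of them also in ER-RNA. The same genes had a median of 0.31 there. COL12A1, a fibril-associated collagen, read 7.11 in control ER-RNA and 7.90 in hypoxia. The enzymes that hydroxylate and cross-link collagen had 7 of 17 expressed members past the threshold upwards and none downwards. PLOD2, a lysyl hydroxylase, read 10.14 in control and 11.66 in hypoxia (2.86-fold). LOX, the lysyl oxidase that starts cross-links, read 8.58 and 9.93 (2.55-fold). The prolyl 4-hydroxylase subunits P4HA1, at 7.99 and 9.18, and P4HA2, at 7.73 and 8.75, were 2.28-fold and 2.03-fold higher. PLOD1, LOXL2 and LOXL3 made up the 7, and all 7 were also past the threshold in total-RNA. PCOLCE, which enhances procollagen cleavage, was the lowest member at 7.30 and 7.07.

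Other secreted matrix and signalling proteins gave smaller differences in both directions. Matrix glycoproteins had 4 of 27 past the threshold upwards (14.8%) and 2 downwards (7.41%), against 5.98% and 22.2% of all genes. Of the 27, 20 were higher. EFEMP2, an elastic fibre protein, read 8.08 and 8.81, while SPARC, a matricellular collagen-binding protein, read 12.25 and 11.32 (1.90-fold lower). Fibronectin (FN1) read 11.17 and 11.68 in ER-RNA and 13.19 and 13.41 in total-RNA. With the values as deposited it was past the threshold in ER-RNA only. After quantile normalization 5 of the 27 were past it upwards. With the arrays centred on their medians 3 were, and FN1 was not. Among secreted proteases and inhibitors, SERPINE2, a serine protease inhibitor, read 9.78 and 10.59, and PLAU, the urokinase plasminogen activator, 10.32 and 9.75. After quantile normalization PLAU differed by -0.41 and was no longer past the threshold.

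Of 31 secreted growth factors and chemokines, 6 were past the threshold upwards (19.4%) and 3 downwards (9.68%), against 5.98% and 22.2% of all genes. PGF, placental growth factor, was the highest at 7.92 and 8.66 (1.67-fold), followed by STC2, CXCL8, VEGFC, IL11 and VEGFB. CCL2, the monocyte chemoattractant, gave the lowest value of any secreted gene, at 10.82 in control and 8.56 in hypoxia (4.77-fold lower), and was as low in total-RNA at 11.13 and 8.54. The other members lower in ER-RNA were BMP4 and LIF. BMP4 was above the 50% quantile in the control array alone.

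Among proteins that fold others inside the ER, the 3 past the threshold upwards were enzymes of disulfide formation, and the 7 downwards were chaperones, prolyl isomerases and members of the disulfide isomerase family. Over 30 expressed members the median was -0.05, and its sign turned positive after quantile normalization. The 3 upwards were 10% of the list, against 5.98% of all genes, and the 7 downwards 23.3%, near the 22.2% of all. ERO1A, the oxidase that drives disulfide formation, read 9.68 and 10.70 (2.02-fold). P4HB, which takes electrons to ERO1A and is also the beta subunit of prolyl 4-hydroxylase, read 10.45 and 11.25 in ER-RNA against 12.73 and 12.995 in total-RNA. QSOX1, a sulfhydryl oxidase, was the other member past the threshold upwards, at 7.68 and 8.27. FKBP14, a prolyl isomerase for collagen, read 7.60 and 5.98 (3.07-fold lower), with the hypoxia value at or below the 50% quantile. DNAJB11, a co-chaperone of HSPA5, read 8.19 and 6.75 (2.72-fold lower), and HSPA5 itself 10.71 and 9.77 (1.91-fold lower). DNAJC10, TXNDC12, FKBP7 and PDIA4 were the others.

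Lysosomal hydrolases, which also enter the ER first, had a median of 0.16 over 26 expressed members. The threshold was passed by 3 each way (11.5%, against 5.98% of all genes upwards and 22.2% downwards). With the arrays centred on their medians none was past it upwards. NPC2, a sterol carrier, was the highest at 11.88 and 12.44, and the hydrolase PPT1 the lowest at 9.31 and 7.80 (2.83-fold lower). None of the 3 that were higher was past the threshold in total-RNA.

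In the membrane class, integrins, growth factor receptors and sterol enzymes had medians above that of all genes, and ion pumps, the translocon and cargo receptors had medians below it. Of 14 expressed integrins, which anchor cells to the matrix, 10 were higher and ITGA5, ITGB3 and ITGA3 were past the threshold. ITGA5, a fibronectin receptor subunit, read 9.60 and 10.52, and ITGB3 read 6.71 and 7.56. ITGA6, a laminin receptor subunit, was the lowest at 8.99 and 8.65. Growth factor and cytokine receptors had 4 of 35 past the threshold upwards, OSMR, LRP1, LIFR and MET, and their median of 0.07 was below 0 with the arrays centred on their medians. OSMR, which binds oncostatin M, read 9.27 and 10.10. TNFRSF21, a death-domain receptor, read 9.17 and 7.91 (2.39-fold lower).

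Of 20 expressed amino acid and glucose transporters, 4 were past the threshold upwards (20%, against 5.98% of all genes). Of these SLC2A1, SLC2A3 and SLC2A6 carry glucose and SLC6A8 creatine. Of the 6 lower (30%, against 22.2% of all genes), 5 carry amino acids and SLC2A12 glucose. SLC2A3, the neuronal-type glucose transporter, read 8.88 and 9.94 (2.08-fold), and SLC2A1, the main glucose transporter of most cells, 10.14 and 10.84. SLC7A11, the cystine importer, read 8.01 and 6.53 (2.78-fold lower), and its partner SLC3A2 9.19 and 8.57. None of 31 ion pumps and metal or proton transporters was past the threshold upwards, or 1 after quantile normalization or loess, and 6 were past it downwards (19.4%, below the 22.2% of all genes), with ATP6V0D1 of the proton pump lowest at 10.40 and 9.47.

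The machinery that inserts and glycosylates proteins at the ER was on the lower side. None of 32 expressed members of the translocon, signal peptidase and glycosylation complexes was past the threshold upwards, or 1 after quantile normalization, and 13 were past it downwards (40.6%, against 22.2% of all). EMC7, of the membrane protein insertion complex, read 8.99 and 8.01, SRPRB, of the signal recognition particle receptor, 8.51 and 7.58, and the signal peptidase subunit SPCS1 10.77 and 10.05. CANX, the membrane lectin chaperone, was the highest at 11.02 and 11.37. In total-RNA 6 of 32 were lower, 5 of them shared. All 6 expressed proteins of the signal recognition particle itself were lower, from SRP68 by -0.26 to SRP54 by -1.13. Cargo receptors and trafficking proteins had 1 of 30 higher, the lysosomal cholesterol exporter NPC1. Another 9 were lower (30%, against 22.2% of all genes), or 4 after quantile normalization.

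Enzymes of the ER membrane for sterols and lipids had the highest share of any membrane list past the threshold upwards, 8 of 32 with 3 downwards. INSIG2, which holds back sterol synthesis when sterols are plentiful, read 7.45 and 9.27 (3.54-fold) and was the highest of all membrane genes in the lists. EBP, SQLE, DHCR7, CYP51A1, INSIG1, SCD and NSDHL were the others, by 0.50 to 0.78. The fatty acid enzymes HACD3, at 9.56 and 8.23, and ELOVL6, at 7.91 and 6.87, were lower by 2.52-fold and 2.05-fold.

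**Figure D4:**
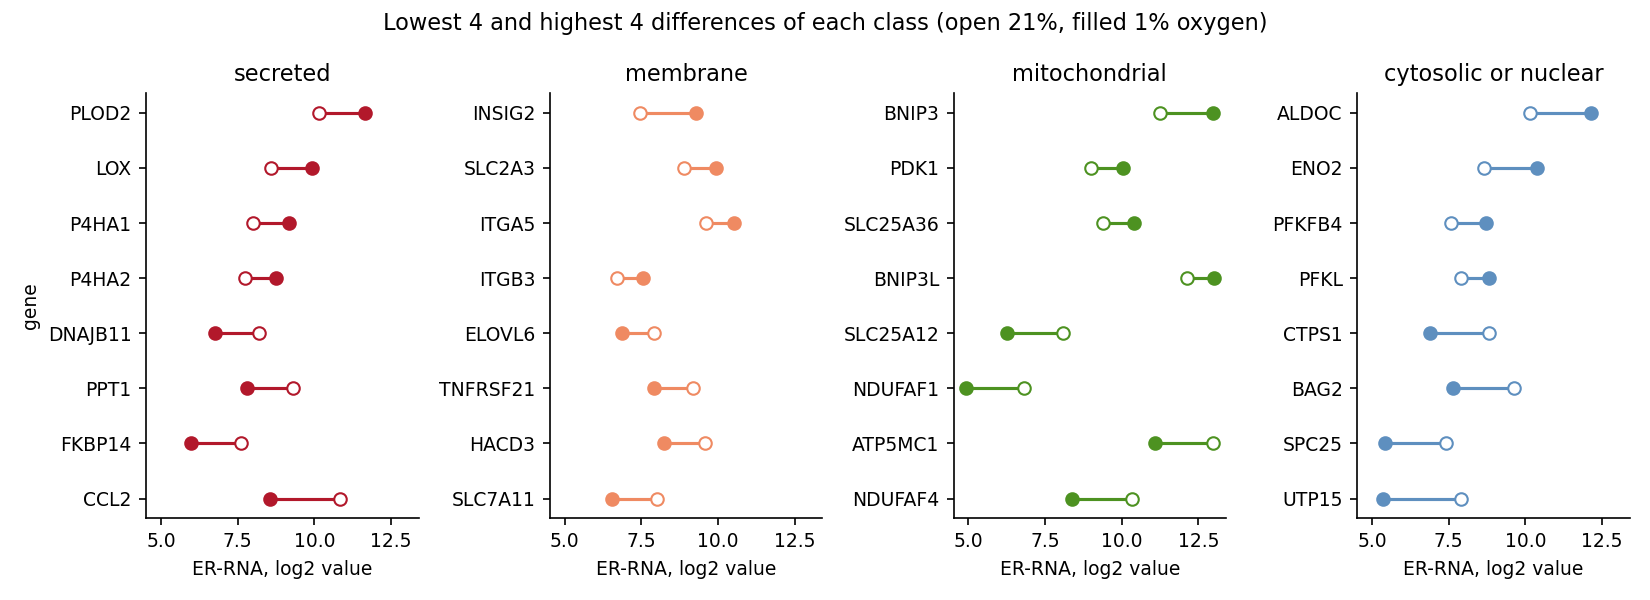
ER-RNA log2 values at 21% (open) and 1% oxygen (filled) for the 4 lowest and 4 highest differences of each class, with cytosolic and nuclear genes in 1 panel. Each line joins the 2 arrays of a gene. CCL2 runs to the left from 10.82 to 8.56, and ALDOC runs to the right from 10.15 to 12.12.

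The mitochondrial class was lower across all 10 of its lists. The median was lowest for mitochondrial DNA and RNA maintenance and for complex I, both at -0.73, and highest for mitochondrial aminoacyl-tRNA synthetases at -0.29. Of 45 expressed complex I subunits and assembly factors, 31 were past the threshold downwards (68.9%) and none upwards. NDUFAF4, a complex I assembly factor, read 10.35 and 8.37 (3.93-fold lower), and NDUFAF1, another, 6.81 and 4.92. NDUFB1, the highest member, was almost level at 7.83 and 7.86. Complexes II to V had 23 of 45 lower, led by ATP5MC1, a subunit of the ATP synthase ring, at 12.98 and 11.07 (3.76-fold lower). That gene was as low in total-RNA, at 12.53 and 10.67.

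The mitochondrial ribosome, protein import and fuel oxidation gave similar counts. Of 74 mitochondrial ribosomal proteins, 47 were past the threshold downwards (63.5%) and 70 were lower by any amount, with MRPS18C at 6.95 and 5.44 and MRPL36 the only 1 past it upwards, at 10.90 and 11.46. As a mean over its probe sets, MRPL36 differed by 0.04 and was not past it. In total-RNA 31 of 69 were lower. Import and proteostasis had 22 of 43 lower, and HSPE1, the mitochondrial co-chaperonin, read 8.48 and 6.81 (3.18-fold lower). The tricarboxylic acid cycle and pyruvate list had 15 of 24 lower, with the isocitrate dehydrogenase subunit IDH3A at 10.19 and 8.53. Fatty acid oxidation and ketone enzymes had 16 of 25 lower, and MCCC2 of leucine breakdown read 8.34 and 6.75. Among 41 mitochondrial carriers 17 were lower, and SLC25A12, the aspartate and glutamate carrier, read 8.09 and 6.26 (3.54-fold lower).

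The 7 mitochondrial transcripts past the threshold upwards were BNIP3, PDK1, SLC25A36, BNIP3L, MRPL36, TOMM20 and SLC25A1. BNIP3, an outer membrane receptor for mitophagy, read 11.25 and 12.96 (3.29-fold), and its relative BNIP3L 12.14 and 12.999. PDK1, the kinase that shuts pyruvate out of the tricarboxylic acid cycle, read 8.996 and 10.05 (2.08-fold). BNIP3, BNIP3L and PDK1 are HIF targets and were on that list too. SLC25A36, a pyrimidine nucleotide carrier, read 9.39 and 10.41. In contrast HIGD1A, of the inner membrane, read 10.29 and 9.09, and the fusion protein MFN1 9.05 and 7.90, the latter chosen after its values were seen. HIGD1A has 2 probe sets, and its values are those of the probe set with the higher ER-RNA mean only.

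The cytosolic lists ran from a median of -0.80 for the proteasome to 0.33 for glycolytic enzymes. Glycolytic enzymes had 7 of 20 expressed members past the threshold upwards and 3 downwards, with a median of 0.33. ALDOC read 10.15 and 12.12 (3.91-fold), ENO2 8.66 and 10.36 (3.25-fold), and PFKFB4, which makes the activator of phosphofructokinase, 7.58 and 8.72. Of the phosphofructokinase isoforms, PFKL read 7.91 and 8.82, while PFKM read 8.43 and 7.21 (2.33-fold lower). The ER-RNA difference was below the total-RNA difference for 16 of the 20.

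Ribosomal proteins were nearly level. Of 62 measured, none was past the threshold upwards, except that RPL13 was (0.54) after quantile normalization, and only RPL22L1 downwards, at 9.17 and 8.29, and the quartiles of the list were 0.00 and 0.15. All 62 lay above the median gene in ER-RNA over total-RNA. Ribosomal protein probe sets can pick up near-identical pseudogene copies, so single members are uncertain. Translation factors had 16 of 53 lower (30.2%, against 22.2% of all genes), with ABCE1, which splits ribosomes after termination, at 10.01 and 8.56. Cytosolic aminoacyl-tRNA synthetases had 18 of 21 lower (85.7%), and FARSB, for phenylalanine, read 10.35 and 8.45 (3.74-fold lower).

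Proteins that degrade or fold others in the cytosol were lower. All 44 expressed proteasome genes were lower and 35 were past the threshold (79.5%), with a median of -0.80. PSME2, an activator subunit, read 10.54 and 8.81 (3.32-fold lower), and PSMB10, of the immunoproteasome, 6.83 and 6.79. Chaperonin subunits and cytosolic chaperones had 17 of 26 lower, led by BAG2, a co-chaperone of HSP70, at 9.61 and 7.63 (3.94-fold lower). Nucleotide, serine and one-carbon enzymes had 14 of 27 lower, with CTPS1, the CTP synthase, at 8.83 and 6.90. Vesicle coats and small GTPases had 10 of 44 lower (22.7%, near the 22.2% of all genes), or 5 after quantile normalization, and 2 higher, which were SEC24A at 8.75 and 9.54 and RAB6A. SAR1B, the GTPase that starts the same coat as SEC24A, read 7.82 and 6.58. Cytoskeletal proteins had 8 of 41 lower (19.5%), or 3 after quantile normalization, and 3 higher, vimentin (VIM) highest at 12.49 and 13.06.

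Among the nuclear lists were the lowest medians of the 40, those of mitosis and ribosome biogenesis. Mitosis and spindle genes had 43 of 47 past the threshold downwards (91.5%) with a median of -1.14, against 39 of 46 and -0.83 in total-RNA. SPC25, a kinetochore protein, read 7.41 and 5.43, with the hypoxia value below the 50% quantile. DNA replication had 33 of 42 lower and ribosome biogenesis 40 of 52, where UTP15, of the small subunit processome, read 7.89 and 5.37 (5.74-fold lower) with the hypoxia value below the 50% quantile. Splicing factors had 25 of 45 lower, 10 of which were among the 12 lower in total-RNA, and SRSF1 read 9.98 and 8.71. Nucleoporins and transport receptors had 30 of 44 lower, with IPO11 at 8.65 and 7.02.

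The HIF target list crosses the classes and was set apart to give the class values without it. Of 51 expressed HIF targets, 38 were past the threshold upwards in ER-RNA (74.5%, against 5.98% of all genes). None was past it downwards, against 22.2% of all genes, and the median was 1.02. In total-RNA 41 of 50 were past it upwards (82%, against 5.96% of all genes). The list was chosen with earlier results of these data known, so these counts are a description only. Without the HIF targets, 20 of 149 secreted genes were past it upwards (13.4%) and the class median was 0.15. Mitochondrial genes kept 4 of 361 (1.11%), with a median of -0.57. The order of the 5 classes was the same without them, with membrane at -0.05, cytosolic at -0.32 and nuclear at -0.80. Few genes were taken out, which left 149 of 160 secreted, 218 of 221 membrane and 332 of 344 cytosolic genes. Of the others, 361 of 364 mitochondrial and all 230 nuclear genes were left. The order therefore had little room to change, and what part HIF has in it was not tested.

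HIF binds DNA at sites that often hold ACGTG, so the promoters of the highest members were read for it. Other forms of the site were not searched, so a promoter without ACGTG may still hold a HIF site. The window ran from 250 bases before to 50 after each RefSeq transcription start in GRCh38.p14, and ACGTG or its reverse complement CACGT was counted on either strand, both of them where they overlap as CACGTG. Of 35116 promoters, 21.4% held it. By gene, 32.5% of 9294 expressed protein-coding genes with a promoter in the table did, against 33.8% of 544 genes past the threshold upwards and 32.8% of 2170 downwards. Both shares are near the background. By class, it was held by 30.4% of the 23 secreted genes past the threshold upwards, against 28.9% of 128 expressed secreted genes. The shares were 36.8% of 19 against 43.6% of 188 for membrane and 58.3% of 12 against 35.5% of 299 for cytosolic genes. For mitochondrial genes they were 83.3% of 6 against 31.0% of 323. For the 43 HIF targets with a promoter the share was 67.4%. Of the 16 genes that are the highest 4 of a class, with cytosolic and nuclear genes as 1 class, 13 had a promoter in the table and 9 of these held the motif, while P4HA2, ITGA5, PFKFB4 and PFKL did not. Windows are given only for genes that held the motif, and SLC25A36, which also held it, is not shown. These 8 windows of 25 bases lie upstream of the start on the gene's own strand and show 1 motif each in capitals.
PLOD2: tgagcctccaCACGTagccgcaggc
LOX: caatcgcattACGTGaacaaatagc
P4HA1: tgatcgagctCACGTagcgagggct
INSIG2: ctcgcaggtcCACGTcttattgaca
BNIP3: gcacgcgccgCACGTgccacacgca
PDK1: tgctgcccgcCACGTccctcacgta
ALDOC: ccggaggagtCACGTagctctgcga
ENO2: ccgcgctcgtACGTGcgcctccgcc

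The motif of PLOD2 begins at -200 from its start site (window chr3:146161370-146161394, minus strand), that of LOX at -98 (chr5:122078343-122078367, minus) and that of P4HA1 at -86 (chr10:73096938-73096962, minus). That of INSIG2 begins at -95 from 1 of its start sites (chr2:118088366-118088390, plus), BNIP3 at -134 (chr10:131982043-131982067, minus), where it is part of CACGTG, and PDK1 at -17 (chr2:172556063-172556087, plus). The ALDOC motif begins at -28 (chr17:28576909-28576933, minus) and the ENO2 motif at -118 (chr12:6914452-6914476, plus). PLOD2, LOX, INSIG2, PDK1 and ALDOC hold further matches in their promoters, and that of PDK1, at -8, lies in lower case within its window. A match describes the sequence and is not evidence of binding.

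Beyond the lists, the 30 highest and 30 lowest protein-coding genes were sorted by what they encode, after their ranks were seen. Secreted or membrane proteins made up 17 of the 30 highest and 3 of the 30 lowest. The same sorting was not made for all expressed genes, so these counts have no background and are a description only. The highest included the membrane proteins VLDLR, a lipoprotein receptor, at 6.59 and 8.04, and JAM2, a junctional adhesion molecule, at 6.44 and 7.96, and the secreted peptide UCN2 at 7.53 and 9.13. Of the 30 lowest, 12 were cytosolic, 8 nuclear and 5 mitochondrial, among them NQO1, a quinone reductase, at 10.09 and 8.12 and TTC19, of complex III, at 9.76 and 7.86. In 13 of the 30 lowest and 4 of the 30 highest, 1 of the arrays was at or below its 50% quantile, so those differences run from or to low values.

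The class order was also read at matched expression, since the median of all genes was 0.11 in the lowest quartile of ER-RNA level and -0.23 in the highest. In the highest quartile 26.8% of 56 secreted genes were past the threshold upwards, against 6.44% of all genes there, and 8.93% downwards, against 30.8%. In the lowest quartile none of 25 secreted genes was past it upwards and their median of 0.08 lay 0.03 below that of all genes. Mitochondrial genes were lower in every quartile, with 50.0% to 59.5% past the threshold downwards against 15.7% to 30.8% of all genes. Membrane genes ran from 0.31 below the median of the lowest quartile to 0.22 above that of the highest. Cytosolic genes in the highest quartile, 267 of the 344, lay only 0.06 below the median there.

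**Figure D5:**
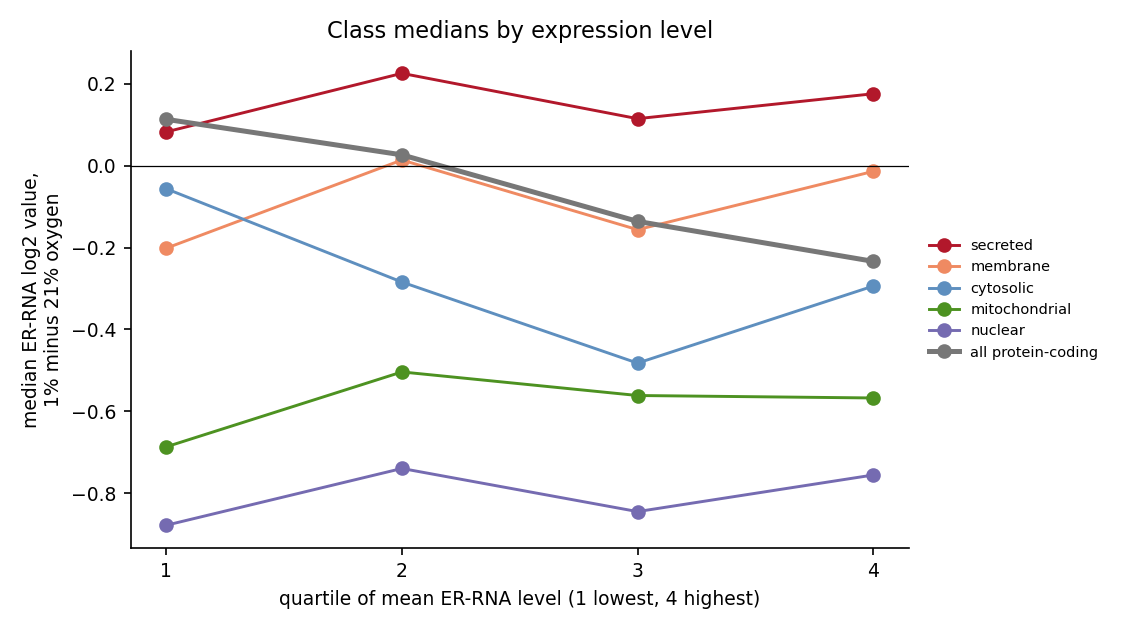
Median ER-RNA difference (log2 value at 1% minus 21% oxygen) of each class within quartiles of mean ER-RNA level, with all expressed protein-coding genes as the thick grey line. Mitochondrial and nuclear genes stay below the grey line in all 4 quartiles, while secreted genes lie above it in the upper 3.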

How the data were processed

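The authors deposited log2 expression values for 33297 probe sets of a human gene array in 4 samples, each pooled from 5 experiments. RMA and Partek 6.4 appear in the submitters' processing notes. No source used here says if the 4 arrays went through RMA together. Of the probe sets, 1754 name several genes and 12083 none here, and all of these were left out. Of the 19460 that name 1 gene, 19429 matched RefSeq by gene identifier, and where a gene had several, the one with the higher ER-RNA mean stood for it. CA9 was not analysed here.

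The log2 difference was hypoxia minus control, with the 1.4-fold threshold of the study's methods and a filter at their 50% expression quantile, read here as 1 of the 2 arrays above it. The methods also ask for a z-score over 3, which served only as an alternative, since with 1 array per condition its SD was computed here from the same pair. Protein classes were to come from protein sequences, which were not used here. The hand-made lists, planned as an alternative, took their place, with cytosolic and nuclear genes together as the genes with neither a signal peptide nor a membrane segment. A list was described by its counts and median beside those of all genes. The members and lists were chosen with earlier results of these data known. Named genes were the 4 highest and 4 lowest of each class among expressed genes and the highest and lowest expressed member of each list. Others past the threshold were named after their values were seen, as were the windows shown. Python 3.11.15, pandas 2.3.3, numpy 2.4.6, scipy 1.17.1, R 4.3.3 and limma 3.58.1 were used, and the calculation was tested on simulated data. The number of arrays limits the precision, and no interval for the spread between experiments can be given.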

Additional observations from a re-analysis of the deposited data

Results flagged for a closer look

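Genes past 1.4-fold in opposite directions in the 2 fractions, and expressed in both, were singled out. With 1 array per condition in each fraction, that difference was not tested. ATRX, a chromatin remodeller, differed by -0.83 in ER-RNA (7.19 and 6.37) and by 0.52 in total-RNA (7.41 and 7.94). N4BP2L2 differed by -0.88 in ER-RNA (9.27 and 8.39) and by 0.49 in total-RNA. ETNK1, an ethanolamine kinase, differed by -0.51 in ER-RNA and by 0.56 in total-RNA. MARCKS, a membrane-associated actin regulator, differed by 0.51 in ER-RNA (6.64 and 7.15) and by -0.55 in total-RNA. The non-coding LIMD1-AS1 differed by 0.60 and -0.54, and the small nucleolar RNA gene SNORD116-23 by 0.61 and -0.72, in the same order. For ETNK1 and LIMD1-AS1, 1 of the ER-RNA arrays was at or below its 50% quantile. MARCKS and ETNK1 in ER-RNA and N4BP2L2 in total-RNA lay only just past the threshold. The ER-RNA array medians were 6.25 in control and 6.34 in hypoxia, and with the arrays centred on them MARCKS is not past it. In the same direction in both fractions, 300 protein-coding genes were past the threshold upwards and 1482 downwards. None of the 6 genes named here belongs to a class list.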

How the results depend on the processing

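No paired analysis was possible because each condition has 1 array, and no array can be left out. The looser and stricter hydropathy thresholds for classes by sequence were not run. Under each alternative that gave class medians, their order relative to all genes was secreted, membrane, cytosolic with nuclear and mitochondrial, except that families of gene symbols gave no mitochondrial value and the fold and z-score thresholds gave counts only. Requiring both arrays above the quantile, averaging probe sets, keeping genes with 1 probe set and leaving out HIF targets kept each class median within its 95% binomial interval, which covers the spread among genes only, and the first 3 of these kept both counts within 1.5 times. The cause of the other shifts was not tested.

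Without the expression filter 1213 genes were higher, and the medians relative to all genes were 0.12 for secreted, -0.58 for mitochondrial and -0.56 for cytosolic with nuclear genes. With the 75% quantile 427 were higher, and the medians were 0.38, 0.15 for membrane, -0.38 and -0.32. With arrays centred on their medians 462 were higher. At 2-fold 85 were higher and 685 lower, and with the z-score over 3 the counts were 135 and 981. Cytosolic with nuclear genes lay at -0.38 after quantile normalization, -0.37 after loess and -0.38 without mitosis and replication genes. The rest was chosen after seeing the data. Families of gene symbols gave 0.35 for secreted, 0.17 for membrane and -0.13 for cytosolic with nuclear genes. Within quartiles of level, membrane genes lay at 0.10, mitochondrial at -0.40 and cytosolic with nuclear at -0.34. Without genes past 1.4-fold in total-RNA, secreted genes lay at 0.16, mitochondrial at -0.35 and cytosolic with nuclear at -0.23. Of 1098 values of single genes under an alternative, 1083 stayed on their side of the threshold. The other expression filters (138 values each) and keeping genes with 1 probe set (132 values) leave a gene's difference unchanged, so those values could not cross it. Most of these genes were also picked as extremes, so the count is no measure of robustness. EEF1A2, MRPL36, NPC1, NPC2 and TOMM20 were no longer past it with the arrays centred on their medians. CANX, NOP53, NUP58 and RPL13 were past it after quantile normalization.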

Other observations

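Non-coding genes were mostly higher in ER-RNA at 1% oxygen. Of 212 expressed lncRNA genes, 40 were past 1.4-fold upwards (18.9%) and 10 downwards (4.72%), with a median of 0.28 in ER-RNA and 0.15 in total-RNA. Over all expressed protein-coding genes these shares were 5.98% and 22.2%. Of 87 snoRNA genes 20 were higher (22.99%) and 5 lower (5.75%), with medians of 0.30 in ER-RNA and -0.02 in total-RNA. Of 38 miRNA genes 7 were higher (18.42%) and none lower, with medians of 0.30 in ER-RNA and 0.31 in total-RNA. The array reads their precursors and not the mature miRNA. The median in control ER-RNA was 6.70 for lncRNA and 6.72 for miRNA genes and 7.79 for snoRNA genes, against 7.62 for protein-coding ones. The part of level in these values was not tested.

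Membrane proteins with numbered symbols were also counted as families. These overlap the lists, as SLC7A11 and SLC2A3 are on the transporter list and TMEM45A is on the HIF target list. Of 160 expressed TMEM genes, a name for transmembrane proteins of often unknown function, 13 were higher (8.1%) and 34 lower (21.25%). Over all expressed protein-coding genes these shares were 5.98% and 22.2%, so more lower than higher genes is also the pattern of all genes. The TMEM median was -0.02. Of 154 expressed SLC transporters outside the mitochondrial SLC25 family, 14 were higher (9.09%) and 20 lower (12.99%, below the 22.2% of all). Their median was 0.05. Of 233 zinc finger genes named ZNF, taken as intracellular comparators, 13 were higher (5.58%) and 34 lower (14.59%, below the 22.2% of all). Their median was -0.05, which is close to all genes and above the nuclear lists.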
